A study of Mus musculus with 12 samples.

Results

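The cytosolic ribosome of mouse osteoclasts was described through 80 protein-coding genes, of 55806 genes in the deposited table, whose symbols follow the usual names of ribosomal proteins (Rps or Rpl with a number and at most the letter a, l or x, together with Rplp0, Rplp1, Rplp2 and Rpsa). Of these, 31 carry small-subunit names and 49 large-subunit names. RNA-seq had been carried out on osteoclasts, cells that resorb bone, grown here from bone marrow monocytes with the cytokines M-CSF and RANKL. The monocytes came from mice of 8 to 12 weeks, and the cells were collected at day 4 of differentiation. The 12 libraries formed 4 groups of 3: male Per1 knockout, male control, female Per1 knockout and female control. Per1 is one of the repressors of the circadian clock. Library names of the knockouts contain cKO, for a conditional allele; neither the removed exons nor a Cre driver is named in the labels, and the controls are described no further than by that word. In each group, replicates 1, 2 and 3 belong to batches 1, 2 and 3. They are labelled as biological replicates, but whether each came from its own mouse is not said, and p-values here reflect the variation among these libraries, some of which may be technical.

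Ribosomal proteins assemble with ribosomal RNA in the nucleolus into a small subunit, which reads the messenger RNA, and a large subunit, which joins amino acids. Each protein is usually present as a single copy per ribosome, and excess free protein is degraded, so the genes are often looked at as a set. Their messenger RNAs mostly begin with a run of pyrimidines, the terminal oligopyrimidine tract, through which the kinase mTOR and the protein Larp1 control their translation. The genome also holds many processed pseudogenes copied from these short, abundant messenger RNAs, which matters for counting reads.

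The libraries held 15366600 to 24346288 fragments on genes. A count of 3 fragments over 1 kb equals 0.119 to 0.188 FPKM (fragments per kilobase of gene, scaled by library depth), which serves as the floor for a gene at 0 and covers counting error only. The 9 osteoclast markers summed to 12107 to 13889.7 FPKM in male knockout, 12050.2 to 17642 in male control, 9819 to 12522 in female knockout and 11901 to 14637 in female control libraries. Markers of other marrow cells were also measured. The 5 macrophage markers (Adgre1, Cx3cr1, Mrc1, Csf1r and Cd14, some of which osteoclast precursors carry too) summed to 352 to 411 FPKM in male knockout, 467 to 539 in male control, 479 to 676 in female knockout and 485 to 689.6 in female control libraries. The 5 neutrophil markers summed to 1376 to 1931 FPKM in male knockout, 1317 to 2664 in male control, 1366 to 2752 in female knockout and 1591 to 2538 in female control libraries. Over the 12 libraries the 3 B cell markers summed to 2.79 to 16.9 FPKM, the 4 erythroid to 1.18 to 7.11, the 5 stromal to 0.134 to 2.75 and the 3 T cell markers to at most 0.70 FPKM. Per1 itself had 2.36, 2.66 and 2.99 FPKM in male libraries labelled knockout, against 3.70, 3.63 and 2.69 FPKM in male controls (log2 change -0.24, SE 0.136, limma adjusted p = 0.448). It had 4.04, 3.83 and 2.82 FPKM in female libraries labelled knockout, against 2.46, 3.33 and 3.03 FPKM in female controls (log2 change 0.21, SE 0.136, limma adjusted p = 0.542). Per1 did not pass the test in either sex and stood higher in 2 of the 3 female libraries labelled knockout than in every female control, so these values do not bear out the label. As the removed part of the gene is not named, a value over the whole gene may miss a partial deletion, and the comparisons below follow the labels. In 3 female libraries the interferon response genes were high: 20 such genes averaged 1.59 and 1.92 above their overall mean on the log2 scale in female knockout 1 and 2, and 1.71 above it in female control 2, against -0.98 to 0.29 in the other 9 libraries.

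The start of transcription could be viewed for 60 of the 80 genes in RefSeq promoters (build GRCm38.p6, 250 bases before to 50 bases after the start). A pyrimidine run, defined as a C followed by at least 4 C or T bases on the gene's strand and reaching within 10 bases of an annotated start, was present in 42 of the 60 (70%). The same run was present in 41.9% of 8582 tested genes and in 46.4% of 69 mitochondrial ribosomal protein genes. The windows of 30 bases around the start, with the run in capitals, are shown for 8 genes to which the results below return, those of the small subunit first.
Rps10 (chr17:27635230-27635259, minus strand): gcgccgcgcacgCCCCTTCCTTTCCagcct
Rps6 (chr4:86857353-86857382, minus strand): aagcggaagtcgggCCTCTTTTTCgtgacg
Rps27 (chr3:90213634-90213663, minus strand): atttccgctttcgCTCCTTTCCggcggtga
Rps27l (chr9:66946071-66946100, plus strand): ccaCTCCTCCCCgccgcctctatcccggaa
Rpl7a (chr2:26910792-26910821, plus strand): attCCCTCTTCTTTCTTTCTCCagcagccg
Rpl14 (chr9:120571502-120571531, plus strand): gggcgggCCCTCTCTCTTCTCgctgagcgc
Rpl6 (chr5:121204486-121204515, plus strand): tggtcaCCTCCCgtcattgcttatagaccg
Rplp2 (chr7:141447636-141447665, plus strand): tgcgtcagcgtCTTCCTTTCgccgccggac
The runs of Rpl7a and Rpl14 are long, and those of Rpl6 and Rps27l lie upstream of the annotated start. Over the whole promoter and both strands, the ETS family motif CCGGAAGT was found in 12 of 60 genes (20%), against 10.1% of tested genes. The YY1 motif AAGATGGC was found in 5 of 60 (8.33%), against 5.8% of tested genes, and the E-box CACGTG, bound by the circadian activators Clock and Bmal1 and by Myc, in 6 of 60 (10%), against 12.1%. These matches describe letters in a window and say nothing of binding.

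**Figure D1:**
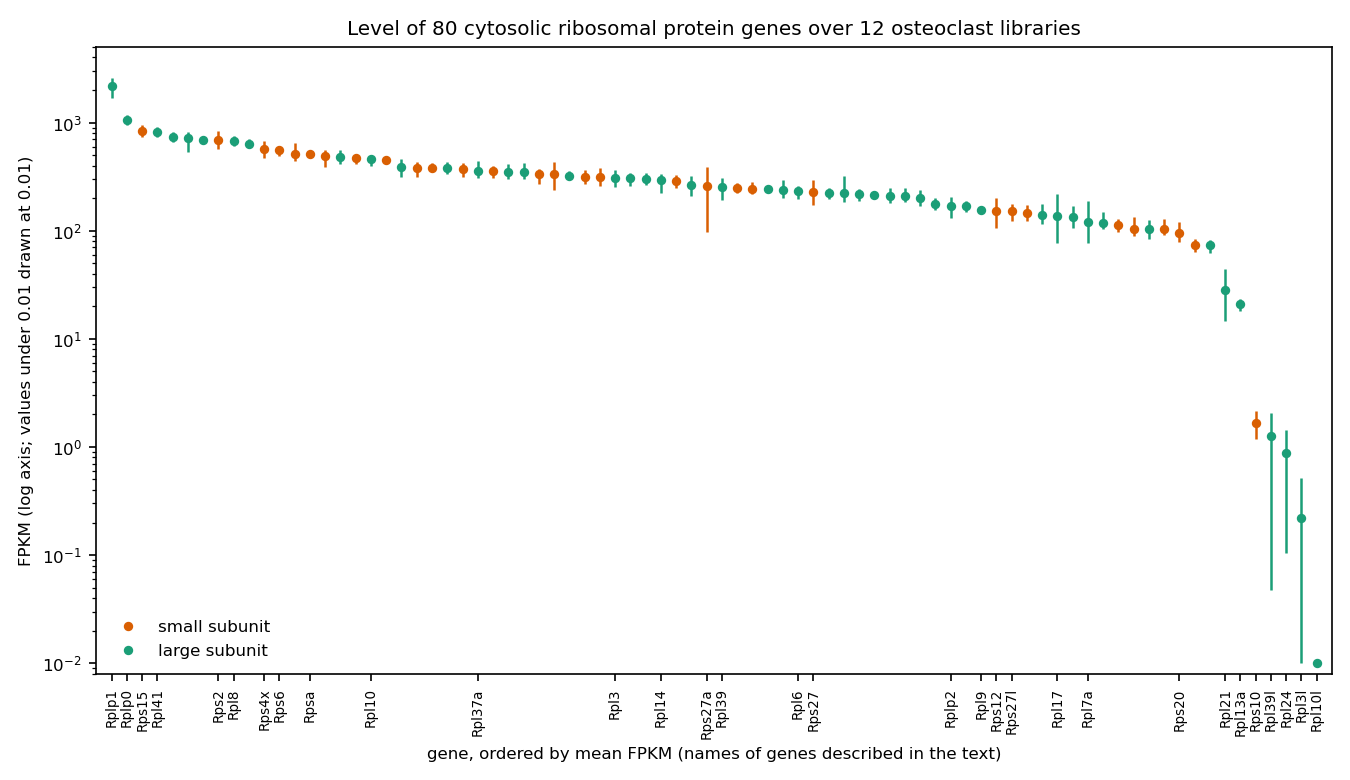
Mean FPKM (points, log axis) and the range over all 12 libraries (vertical lines) of the 80 genes, ordered from high to low, small-subunit genes in orange and large-subunit genes in green, with names below the axis for genes described in the text. Most genes lie between 100 and 1000 FPKM, and Rps10, Rpl39l, Rpl24, Rpl3l and Rpl10l lie below 2 FPKM.

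Ribosomal protein genes were among the abundant transcripts of these osteoclasts, though their levels differed widely from gene to gene. FPKM are per length of the gene model, which ran from 383 bases for Rpl36 to 6270 bases for Rps15a. The order of the genes therefore depends in part on these lengths. Averaged over the 12 libraries, 70 of the 80 genes reached 100 FPKM and 14 reached 500 FPKM. The median gene stood at 257 FPKM, against 6.56 FPKM for the 12237 genes with at least 1 FPKM in 3 or more libraries. Of the 80 genes, 78 passed that filter. Small-subunit genes had a median level of 315 FPKM and large-subunit genes 231 FPKM, while 77 mitochondrial ribosomal protein genes that passed had 17.0 FPKM. Together the 80 genes accounted for 4.22% to 4.98% of all fragments per library.

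Genes of the stalk, the flexible arm of the large subunit that recruits elongation factors, differed widely among themselves: Rplp1 and Rplp0 were the 2 highest of the 80, and Rplp2 was number 56. Rplp1 (ENSMUSG00000007892, chromosome 9), the acidic stalk protein P1, was the most abundant of the 80. It averaged 2168 ± 354 FPKM in male knockout, 2155 ± 126 in male control, 2377 ± 235 in female knockout and 1953 ± 408 in female control libraries (SD, n = 3 each). Rplp0, which anchors the stalk, averaged 1058 FPKM over the 12 libraries with a range of 956 to 1172, and did not overlap with Rplp1 in any library. Rplp2, the acidic partner P2, averaged 170.0 FPKM, between 131 and 204. FPKM are per length of the gene model, which has 499 bases for Rplp1 and 2072 bases for Rplp2.

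Next in the order came Rps15 of the small-subunit head at 841 FPKM (732 to 954) and Rpl41, which encodes the shortest ribosomal protein, at 820.0 FPKM (732 to 915). The ranges of these 2 genes overlapped. Rpsa, a small-subunit protein also known as the laminin receptor, averaged 513 FPKM, between 478 and 550.1. Rps4x, the X-linked gene of a small-subunit protein, averaged 571 FPKM, between 470.5 and 670.1.

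At the low end stood genes of 2 kinds. Rpl3l and Rpl10l are known from other work as the muscle and testis versions of Rpl3 and Rpl10. Rpl10l had 0 fragments in all 12 libraries, which allows up to 0.116 to 0.184 FPKM per library at 3 fragments. Rpl3l averaged 0.218 FPKM, with 0 to 0.521 FPKM, and both failed the filter, while Rpl3 averaged 308 FPKM and Rpl10 462 FPKM. Rpl39l, the testis-enriched copy of the exit-tunnel protein Rpl39, averaged 1.27 FPKM, against 253 FPKM for Rpl39. Unlike these, Rps27l, whose human counterpart is induced by p53, was well expressed at 151 FPKM (123 to 176), beside 229 FPKM (174 to 296) for Rps27. Rpl13a (18.2 to 23.5 FPKM), Rps10 (mean 1.68 FPKM) and Rpl24 (mean 0.883 FPKM, 0.105 to 1.45) encode ordinary core proteins that every ribosome carries and were low too.

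For Rps10 and Rpl24 most fragments of gene and copies together stood on annotated copies elsewhere in the genome. Rps10 (chromosome 17), a small-subunit protein that the ubiquitin ligase Zfp598 modifies on collided ribosomes, had 1.18 to 2.14 FPKM. Its processed pseudogene Rps10-ps2 (chromosome 16) had 161 to 297 FPKM. Their sequences were identical at 491 of 496 aligned bases. A stretch of 60 coding bases, with the 4 differing bases of that stretch in capitals, is shown because these bases are among the few that tell the pair apart (GENCODE M21 transcripts, GRCm38).
Rps10: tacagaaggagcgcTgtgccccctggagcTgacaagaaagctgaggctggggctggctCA
Rps10-ps2: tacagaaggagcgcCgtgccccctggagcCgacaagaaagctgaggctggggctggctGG
The longest run without a difference was 392 bases. The sources used here do not say how reads with several matches were assigned, so each value of such a gene is the value of a row, not of the protein's transcript.

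Copies were found for 75 of the 80 genes as rows of the table whose description names the same protein entry, 2374 rows in all, of which 2317 are pseudogenes. Over the median gene 4.12% of the fragments of gene and copies stood on the copies. This share was 96.9% for Rps10, 88.9% for Rpl24, 66.7% for Rpl17 and 58.0% for Rpl21, and it lay between 20% and 35% for Rps12, Rpl7a, Rpl23 and Rps7. The low gene Rpl13a was not among the 8 genes with over 20% on copies, and the cause of its low level was not tested. For Rps12 the top copy, Rps12-ps3, was identical over all 494 aligned bases and had 247 to 489 FPKM. Rpl17 varied by 2.82-fold between its highest and lowest library, but gene and copies together by 1.33-fold. For Rpl21 these values were 3.07-fold and 1.51-fold, and for Rpl7a 2.52-fold and 1.92-fold.

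**Figure D2:**
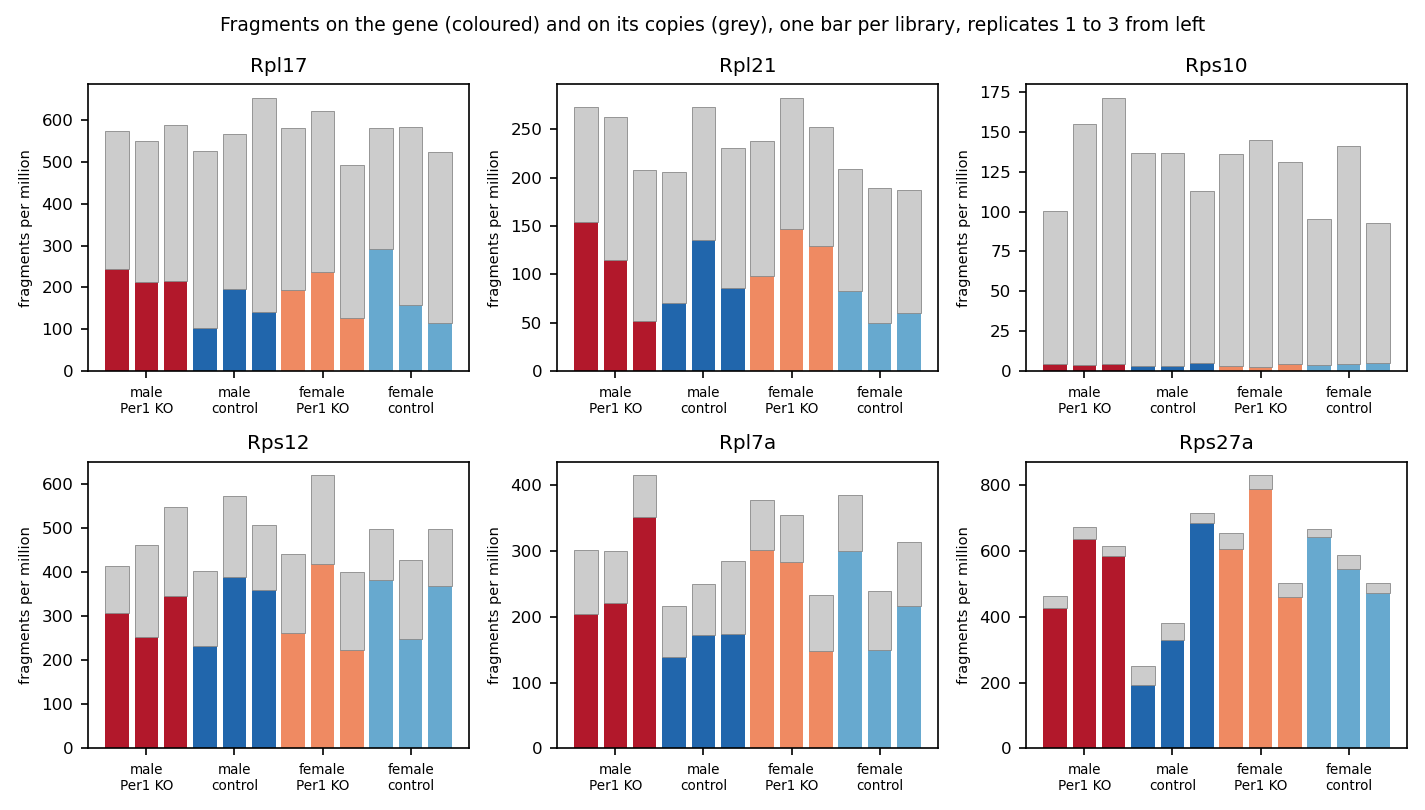
Fragments, scaled by library depth, on the gene (coloured by group) and on its annotated copies (grey, stacked) for 6 genes, 1 bar per library and replicates 1 to 3 from left within each group (KO, knockout). The coloured part of Rpl17 and Rpl21 changes far more between libraries than the whole bar does, while the bar of Rps27a changes as a whole.

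Rps27a, which encodes a small-subunit protein fused to ubiquitin, had the largest spread on the log2(FPKM + 1) scale, and its copies held few of its fragments. It had 208, 311 and 284 FPKM in male knockout libraries, against 96.6, 166 and 333 FPKM in male control libraries. In female libraries it had 295, 389 and 223 FPKM in knockouts, against 320.4, 279 and 233 FPKM in controls. Male controls alone thus spanned most of the range of the gene. Copies held 6.81% of the fragments of gene and copies; in depth-scaled fragments the gene varied by 4.07-fold, and gene and copies together by 3.33-fold. Its pooled SD within groups was 0.523 on the log2 scale, the largest among the 78 genes, followed by 0.511 for Rpl21 and 0.484 for Rpl39l. As a plain ratio of highest to lowest FPKM, the low genes Rpl39l (42.8-fold) and Rpl24 (13.7-fold) varied more than Rps27a (4.03-fold), and the logarithm with 1 added damps such low genes. The median gene had 0.143, against 0.133 for all genes tested, and the smallest were 0.0625 for Rpl8, 0.0666 for Rpl9 and 0.0704 for Rps9.

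The libraries of a group differed in the ribosomal protein genes as a whole. In male control 1, 6 of 78 genes lay above their group mean, against 38 in male control 2 and 64 in male control 3. In the male knockouts 22, 38 and 66 genes lay above the mean in replicates 1 to 3. Among females the counts were 40, 67 and 19 in the knockouts and 45, 51 and 19 in the controls. Over all genes tested the share above the group mean was 47.8% to 52.1% in every library, a share that scaling by depth holds near its centre. Mitochondrial ribosomal protein genes also differed between libraries of a group. Of 77, those above the mean in replicates 1 to 3 were 28, 50 and 39 in male knockouts and 25, 54 and 48 in male controls. In females they were 28, 38 and 45 in knockouts and 40, 37 and 42 in controls.

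**Figure D3:**
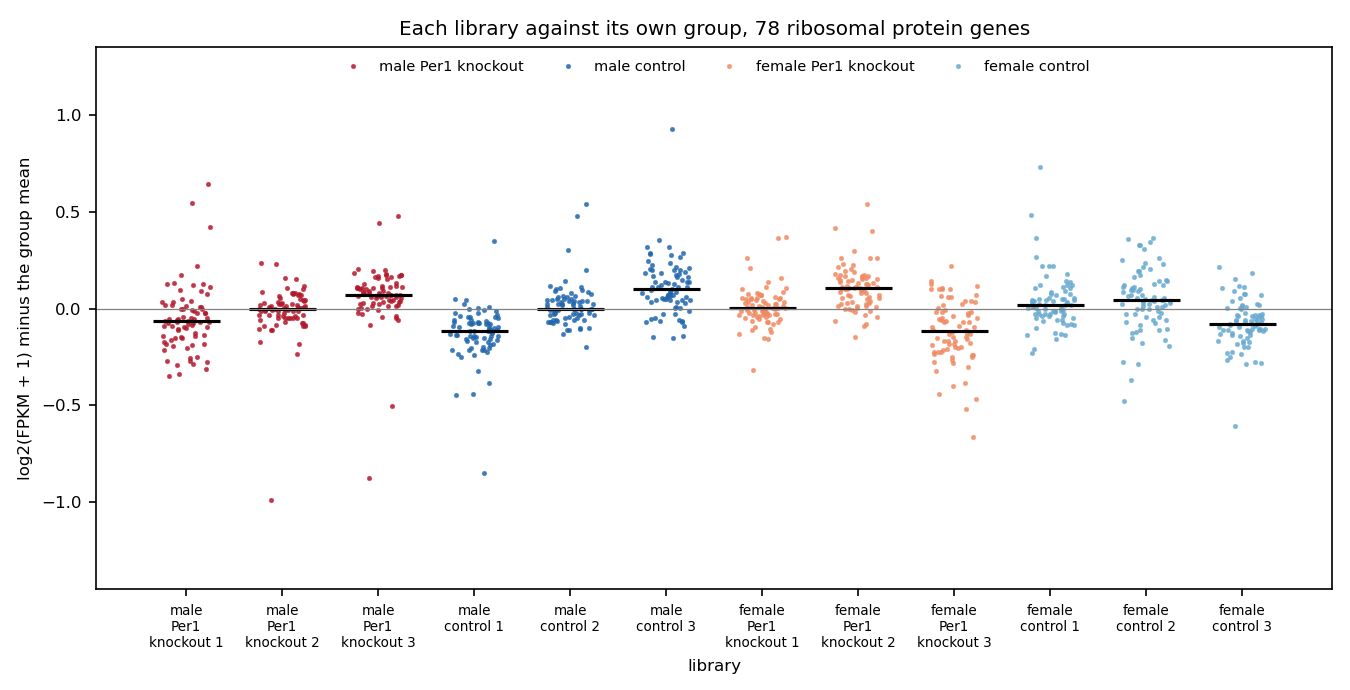
Deviation of each of the 78 genes from its own group mean, log2(FPKM + 1), in every library; points are genes and black bars medians. Male control 1 and female knockout 3 lie below 0, and male control 3 and female knockout 2 above 0.

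The shift was small for the typical gene. The median deviation was lowest in female knockout 3, at -0.12 on the log2 scale, and highest in female knockout 2, at 0.11. The summed level was 24987, 26827 and 28153 FPKM in male knockouts, against 24753, 26632 and 28002 FPKM in male controls. It was 25915, 27648 and 24092 FPKM in female knockouts, against 25918, 26755 and 24137 FPKM in female controls. In both sexes the groups overlapped over nearly their full range. In both sexes the sums of same-numbered libraries, which share a batch, lay close together, least so for replicate 2 of females. In males they were highest in replicate 3. In females they were highest in replicate 2 and lowest in replicate 3, in both genotypes. The shifts within groups thus ran alike in knockouts and controls of a sex, and batch as their source was not tested.

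A single transcript outside the set marked a sharper division between libraries. Rn18s-rs5, a row for 18S ribosomal RNA, had 2258 to 2771 FPKM in 4 libraries (male knockout 1, male control 3, and female control 1 and 3) and 6014 to 7641 FPKM in the other 8. In 6 of 78 ribosomal protein genes (7.69%) these library sets did not overlap, against 6.70% of all genes tested, which is near the background. Rplp1 and Rps2 were lower in the 4 libraries, and Rpl3, Rpl4, Rpl5 and Rps4x higher. Rplp1 had 1676 to 2053 FPKM in the 4 libraries, against 2116 to 2610.0 FPKM in the other 8. Of the 4 libraries with little 18S RNA 3 are controls, and in females no knockout is among them, so that there the division follows genotype in part.

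The first comparison of genotypes asked whether ribosomal protein genes differed between male Per1 knockout and male control osteoclasts. Of 78 genes 37 had a positive log2 change (47.4%, against 48.8% of all genes tested) and 41 a negative one, and the median was -0.0038, against -0.0049 for all genes tested. By limma, 0 of the 78 genes passed an adjusted p of 0.05, where 0.00817% of all 12237 genes were called, and voom on rebuilt fragments called 0 of 78, where it called 0.0409% of all genes. At an unadjusted p under 0.05 stood 1 of 78 (1.28%), against 14.6% of all genes. The 95% interval of the change lay within 1.5-fold in either direction for 70 of 78 genes (89.7%), against 77.5% of all genes.

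Rps27l had the lowest p of the 78. It had 174, 167 and 176 FPKM in male knockouts, against 123, 135 and 173 FPKM in male controls. The groups met at male control 3, whose value lay within the knockout range (log2 change 0.27, SE 0.117, limma adjusted p = 0.318). Without that library the change was 0.41 (limma adjusted p = 0.0685), in a fit that called 64 of all 12237 genes. Leaving out any other single male library gave a lowest limma adjusted p among the 78 of 0.393 to 0.631. Its partner Rps27 had 176, 203 and 227 FPKM in male knockouts, against 214, 242 and 239.6 FPKM in male controls, and the groups overlapped (log2 change -0.20, SE 0.204, limma adjusted p = 0.689).

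Every male knockout library lay above every male control library in 3 of 78 genes, where 12.5% of all genes tested did so, and below in 0 of 78, where 10.9% did so. Together this makes 3.85%, against 23.4%. The 3 were Rpl7a, Rpl17 and Rpl8. Rpl7a, a large-subunit protein, had 110.4, 119 and 189 FPKM in male knockouts, against 77.0, 96.1 and 93.6 FPKM in male controls (log2 change 0.61, SE 0.312, limma adjusted p = 0.393). Rpl17, which lines the exit tunnel, had 177, 154 and 155 FPKM in male knockouts, against 76.7, 146 and 103 FPKM in male controls (log2 change 0.62, SE 0.341, limma adjusted p = 0.431). For Rpl17 the fragments of gene and copies together had a log2 change of -0.022 in males, where the gene's own fragments had 0.64. For Rpl7a the sum with copies had 0.43, beside 0.63 for the gene alone.

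Rpl8, which lies near the site of peptide bond formation and has 0% of its fragments on copies, had 699, 745 and 753 FPKM in male knockouts, against 675, 681 and 659 FPKM in male controls. The gap between the groups was narrow but clear of overlap (log2 change 0.12, SE 0.0691, limma adjusted p = 0.435). Among the negative changes of low p were Rps7 (-0.16, SE 0.125) and Rps14 (-0.12, SE 0.108), with limma adjusted p of 0.590 and 0.653. For Rps7 the sum with copies had a log2 change of -0.13 in males, beside -0.14 for the gene's own fragments.

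The second comparison asked the same of female Per1 knockout and female control osteoclasts. Of the 78 genes 42 had a positive log2 change (53.8%, against 47.9% of all genes tested) and 36 a negative one, with a median of 0.010, against -0.0083 for all genes tested. By limma, 0 of 78 passed an adjusted p of 0.05, where 0% of all genes were called, and voom also called 0 of 78 and 0% of all genes. At an unadjusted p under 0.05 stood 4 of 78 (5.13%), against 11.4% of all genes. The 95% interval lay within 1.5-fold for 66 of 78 (84.6%), against 78.9% of all genes. Without the 3 libraries of high interferon genes, which leaves 1 knockout library assumed to vary like the other groups, the median was -0.085, against -0.017 for all genes tested. Positive were 23 of 78 changes, against 5639 of 12237 for all genes.

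Rpl14, a large-subunit protein, had 223, 246 and 265 FPKM in female knockouts, against 322, 264 and 315 FPKM in female controls. The groups met at female control 2, which was close to knockout 3 (log2 change -0.29, SE 0.0958, limma adjusted p = 0.380). Rpl37a, a zinc-binding large-subunit protein, had 308, 320.4 and 311 FPKM in female knockouts, against 438, 358 and 369 FPKM in female controls. These groups did not overlap (log2 change -0.30, SE 0.102, limma adjusted p = 0.388). Rpl6 had 196, 212 and 226 FPKM in female knockouts, against 248, 221 and 257 FPKM in female controls, with overlap at control 2 (log2 change -0.19, SE 0.0767, limma adjusted p = 0.409). With the ribosomal RNA share as a term, Rpl14 stood at -0.18 (SE 0.0904, limma adjusted p = 0.748) and Rpl37a at -0.17 (SE 0.0925, limma adjusted p = 0.757). That share averaged 1.36% of fragments in female knockouts and 0.731% in female controls, so it follows genotype in part. In females the term and genotype cannot be fully told apart, for these genes or for those below.

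On the positive side Rpl21, a large-subunit protein with more fragments on copies than on the gene, had 27.9, 42.2 and 36.5 FPKM in female knockouts. Female controls had 23.9, 14.9 and 17.3 FPKM, and the groups did not overlap (log2 change 0.90, SE 0.363, limma adjusted p = 0.412). With copies included its log2 change was 0.40 in place of 0.96 for the gene's own fragments. Rplp1 had 2380.2, 2610.0 and 2139.9 FPKM in female knockouts, against 1761, 2422 and 1676 FPKM in female controls (log2 change 0.30, SE 0.157, limma adjusted p = 0.474). The 2 low controls are those of little 18S RNA. With the share of fragments on ribosomal RNA as a term, which in females follows genotype in part, the change was 0.077 (SE 0.138, limma adjusted p = 0.951). Rplp1 had been picked out as lower in all 4 libraries of little 18S RNA. A smaller change with this term therefore tells nothing about its cause. Rps20, a small-subunit protein, stood at 0.23 on the log2 scale (SE 0.129, limma adjusted p = 0.491), and at 0.11 with the ribosomal RNA term. Leaving out female control 2 gave 0.46 for Rplp1 and 0.35 for Rps20, and leaving out female control 3 gave 0.20 and 0.14, with limma adjusted p of 0.123 to 0.884 over these 4 values.

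Female groups did not overlap in 8 of 78 genes (10.3%), against 13.2% of all genes tested. Rpl21 was higher in knockouts (1 of 78, where 6.38% of all genes were), and 7 of 78 were lower, where 6.85% of all genes were: Rpl4, Rps6, Rpl37a, Rps26, Rpl27, Rpl29 and Rpl9. Rps6, the target of S6 kinase downstream of mTOR, had 488, 519 and 523 FPKM in female knockouts, against 605, 527 and 579 FPKM in female controls. The gap between knockout 3 and control 2 was small (log2 change -0.16, SE 0.0765, limma adjusted p = 0.453).

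**Figure D4:**
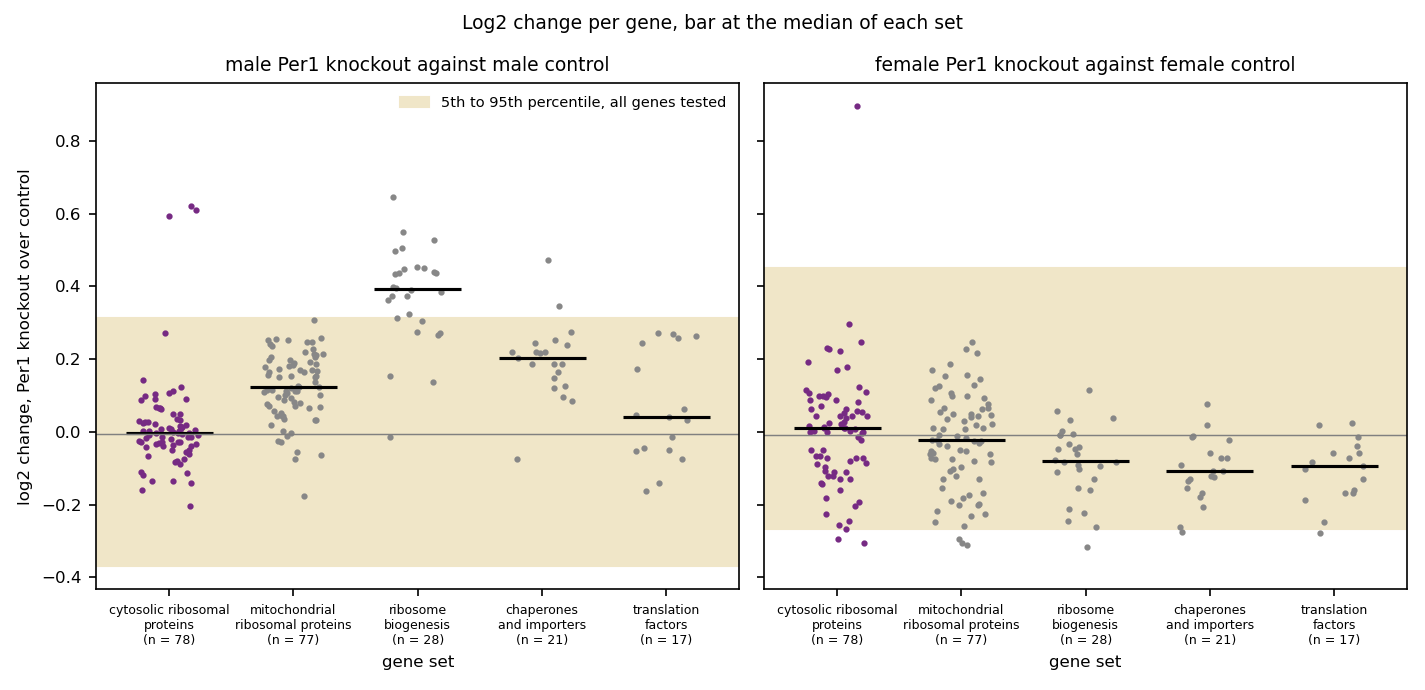
Log2 change of each gene, Per1 knockout over control, in males (left) and females (right) for the ribosomal protein genes (purple) and 4 related gene sets (grey). Black bars are medians, and the shaded band holds the 5th to 95th percentile of all 12237 genes tested. In males the ribosomal protein genes centre on 0 and the ribosome biogenesis genes lie above it; in females all 5 sets lie close to 0.

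Averaged over the sexes, the median log2 change was -0.0079, against -0.0025 for all genes, with 37 of 78 positive (47.4%, against 48.9% of all genes). By limma 0 of 78 were called, against 0.00817% of all genes, and by voom 0 of 78, also against 0.00817%. At an unadjusted p under 0.05 stood 1 of 78 (1.28%), against 10.4% of all genes. That gene was Rpl37a (log2 change -0.17, SE 0.0723, limma adjusted p = 0.473). Rps28 and Rpl10 followed with -0.16 (SE 0.0866) and -0.097 (SE 0.0535), at limma adjusted p of 0.544 and 0.560. The positive changes of lowest p were 0.47 for Rpl21 (SE 0.257), 0.14 for Rps2 (SE 0.0822) and 0.35 for Rpl7a (SE 0.220), at limma adjusted p of 0.561, 0.584 and 0.615. That of Rpl7a was -0.10 without the 3 libraries of high interferon genes.

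Whether the change with genotype was the same in both sexes was tested as an interaction, taken as female minus male. Of 78 genes 43 had a positive difference (55.1%, against 49.1% of all genes). By limma 0 of 78 genes were called, where 0% of all genes were, and voom gave 0 of 78 and 0% too. At an unadjusted p under 0.05 stood 3 of 78 (3.85%), against 17.0% of all genes. The 3 were Rpl14 (-0.44, SE 0.136), Rps6 (-0.26, SE 0.108) and Rpl6 (-0.26, SE 0.108), with limma adjusted p of 0.220, 0.264 and 0.269. Each had a positive change in males and a negative one in females. Rpl14 had 335, 323 and 337 FPKM in male knockouts, against 285, 291 and 328 FPKM in male controls (log2 change 0.14, SE 0.0958, limma adjusted p = 0.525). Among the positive differences of low p were 0.86 for Rpl21 (SE 0.514) and 0.27 for Rps20 (SE 0.183), with limma adjusted p of 0.391 and 0.449.

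Several ribosomal protein genes lie outside the name pattern. Rps3a1 had 956 to 1376 FPKM over the 12 libraries, Fau, which fuses a ubiquitin-like protein to a small-subunit protein, 492 to 709.7 FPKM, and Rack1, a scaffold on the small subunit, 202 to 229.5 FPKM. Rpl22l1 had 23.8 to 37.3 FPKM and Rpl7l1 32.9 to 39.9 FPKM. Rpl36al had 0.356 to 1.23 FPKM and did not pass the filter. None of the 5 named here that were tested passed limma's adjusted p in any comparison, and Rpl7l1, the one of them at an unadjusted p under 0.05 in males, had a log2 change of 0.19 there (SE 0.0530, limma adjusted p = 0.154).

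Genes that build ribosomes mostly had positive changes in males, though the contrast with the ribosomal protein genes was not put to a test. Of 28 ribosome biogenesis genes 27 had a positive change in male knockouts, with a median log2 change of 0.39. Single genes did not pass in the main test: by limma 0 of 28 were called, 25 of 28 (89.3%, against 14.6% of all genes) stood at an unadjusted p under 0.05, and 22 (78.6%, against 23.4%) did not overlap between the groups. Like the other lists, this one was chosen with earlier results of these data known. Its genes were also measured in the same libraries, so these shares are not 28 separate observations. Nop2, which methylates ribosomal RNA of the large subunit, had 35.9, 34.0 and 31.5 FPKM in male knockouts, against 22.8, 22.3 and 25.8 FPKM in male controls (log2 change 0.50, SE 0.0906, limma adjusted p = 0.0963). Mybbp1a, a nucleolar regulator, had 51.2, 46.7 and 45.8 FPKM in male knockouts, against 29.7, 30.8 and 37.1 FPKM in male controls (log2 change 0.55, SE 0.105, limma adjusted p = 0.105). Both were separate between the groups. With the share of fragments on ribosomal RNA as a term in the model, 7 of 28 were called in males, where that model called 1.18% of all genes. Macrophage markers stood the other way in the same libraries: 0 of 5 had a positive change (median -0.36), 3 stood at an unadjusted p under 0.05, and their summed level did not overlap between the groups. Cx3cr1, a chemokine receptor of monocytes and macrophages, was the 1 gene of all 12237 that limma called in males and is named for that. It fell to 4.19, 6.39 and 7.77 FPKM in male knockouts, against 23.3, 24.0 and 21.9 FPKM in male controls (log2 change -1.79, SE 0.174, limma adjusted p = 0.00856). The call depended on the fit: limma called 1 gene in males with the replicate block, and 0 with the block within sex or with male libraries alone. Leaving out single male libraries, it called 0 genes without knockout 2, control 1 or control 2. It called 1 without knockout 1 or knockout 3, and 64 without control 3. Neutrophil markers had a positive change in 0 of 5 (median -0.20) and B cell markers in 0 of 3 (median -0.42), with 0 at an unadjusted p under 0.05 and overlapping sums. Osteoclast markers had a positive change in 2 of 9 in males (median -0.10), with 0 at an unadjusted p under 0.05. In females 0 of 9 were positive (median -0.28), and 2 (22.2%, against 11.4% of all genes) stood at that threshold. The part of any of these cell types in the change of the biogenesis genes was not tested.

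Chaperones and importers of ribosomal proteins were positive in 20 of 21 genes in male knockouts (median 0.20) and mitochondrial ribosomal protein genes in 69 of 77 (median 0.12), with 0 called in each by limma, and with 6 (28.6%) and 15 (19.5%) at an unadjusted p under 0.05, against 14.6% of all genes. Rrs1, a factor that brings Rpl5 and Rpl11 into the large subunit, had 33.9, 34.2 and 29.6 FPKM in male knockouts, against 23.6, 21.7 and 24.2 FPKM in male controls (log2 change 0.47, SE 0.103, limma adjusted p = 0.114). Eif6, which keeps the subunits apart during assembly, stood at 0.24 on the log2 scale in males (SE 0.0608, limma adjusted p = 0.131). The 5 ways of rescaling kept the median of each of these 3 sets positive in males, at 0.38 to 0.45, 0.19 to 0.25 and 0.11 to 0.17. Translation factors and similar genes were positive in 10 of 17 (median 0.042), with 0 called and 3 (17.6%) at an unadjusted p under 0.05, near the share of all genes. Eef1g, a subunit of elongation factor 1, had the lowest p among them, at 0.26 on the log2 scale (SE 0.0691, limma adjusted p = 0.139).

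In females the same sets were close to 0 or slightly negative. The ribosome biogenesis genes were positive in 5 of 28 (median -0.079), the chaperones and importers in 2 of 21 (median -0.11), the mitochondrial ribosomal protein genes in 34 of 77 (median -0.023) and the translation factors in 2 of 17 (median -0.094). By limma 0 genes of these sets were called, and at an unadjusted p under 0.05 stood 0, 0, 10 (13.0%) and 2 (11.8%) of them, near or below the 11.4% of all genes. Eef1a1, the elongation factor that carries transfer RNA to the ribosome, had the lowest p among the translation factors, at -0.28 on the log2 scale (SE 0.105, limma adjusted p = 0.401). Tested as an interaction, 22 of the 28 biogenesis genes (78.6%, against 17.0% of all genes) stood at an unadjusted p under 0.05, all with a negative difference, with 0 called by limma; Nolc1, a nucleolar phosphoprotein, had -0.89 (SE 0.186, limma adjusted p = 0.180).

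Regulators of ribosomal protein synthesis were positive in 15 of 18 genes in males (median 0.077) and 13 of 18 in females (median 0.054), with 0 called by limma and with 4 in males (22.2%, against 14.6% of all genes) and 2 in females (11.1%, against 11.4%) at an unadjusted p under 0.05. Myc, which drives ribosome production, had 31.5, 34.8 and 33.3 FPKM in male knockouts, against 23.5, 24.1 and 26.8 FPKM in male controls (log2 change 0.41, SE 0.0779, limma adjusted p = 0.105). In females it had 28.1, 24.5 and 27.9 FPKM in knockouts, against 24.7, 23.8 and 26.6 FPKM in controls, and the groups overlapped. Trp53, the tumour suppressor p53 that free ribosomal proteins can stabilise through Mdm2, stood at 0.33 on the log2 scale in males (SE 0.0765, limma adjusted p = 0.116). Eif4e, the cap-binding factor, had -0.20 in females (SE 0.0802, limma adjusted p = 0.409).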

How the data were processed

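RNA-seq values of 12 osteoclast libraries were taken from a table of FPKM deposited by the authors. Tools listed in the submitters' processing notes are featureCounts 1.5.0-p3 and HISAT2 2.0.5, with build mm10 and no parameters; strand use and the handling of reads with several matches are not given in the sources used here. 1 emptied line was not used. FPKM times gene length gave whole reads within 0.01 in 100% of values, and fragments were rebuilt from these steps. Genes with 1 FPKM or more in at least 3 libraries (12237) were fitted as log2(FPKM + 1) in limma 3.58.1 (R 4.3.3), a mean per group over all 12 libraries, trended moderated variances, two-sided tests and Benjamini-Hochberg adjustment over all genes tested at 0.05; folds of low genes are understated. The fit was tested on simulated data. Sequences were aligned with Biopython 1.88.

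The genes and all lists were chosen with earlier results of these data known. Named were genes of lowest p per comparison and direction, highest, lowest and failed levels, largest and smallest spread, paralogue pairs, stalk genes, Rpsa, and the 2 of lowest p per related list; genes whose groups did not overlap, the copies and the 18S pattern were chosen after their values were seen. Replicate numbers mark a shared batch and so pair libraries by design. The main fit had no batch term, and fits with a replicate block were run as alternatives. Of 18 same-numbered pairs, taken within and across the sexes, 4 correlated above 0.1 (-0.22 to 0.44). These correlations do not tell how closely the ribosomal protein genes pair, whose sums lay close together in same-numbered libraries of each sex. Alternatives covered pseudocount, filter, scaling, variance model, library weights, voom, libraries fitted, the replicate block and the share of ribosomal RNA. Some genes are not reported here.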

Additional observations from a re-analysis of the deposited data

How the results depend on the processing

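The count of 0 ribosomal protein genes called held in all 4 comparisons under each other setting tried except library weights. With limma's library weights 2 genes were called in males, 26 in females, 7 averaged over the sexes and 13 for the difference between the sexes; that estimate stopped before convergence, gave female knockout 1 a weight of 9.11 and called 1182, 4890, 2068 and 3903 of 12237 genes in these 4 comparisons. With the replicate block 0 genes were called in each comparison, and with the block within sex 0 as well. At an unadjusted p under 0.05 the block gave 0, 6, 0 and 4 genes in males, in females, averaged and for the difference. The block within sex gave 2, 9, 1 and 4. The share of all genes at that threshold was not counted for these fits, so nothing is read from these counts. Leaving out each library in turn gave 0 called each time, with a median log2 change of -0.056 to 0.050 in males, -0.054 to 0.065 in females and -0.031 to 0.028 averaged, so the sign of these medians is not fixed by the data. Rescaling also turned the sign of the median in males, which was 0.038 as TPM and -0.020 with upper quartiles. The median over all genes tested moved much alike, at 0.034 and -0.018. Without the 3 libraries of high interferon genes the median in females was -0.085, against -0.017 for all genes, and the averaged change of Rpl7a was -0.10 in place of 0.35. Without male control 3, 4 of 28 ribosome biogenesis genes were called in males, where 64 of 12237 genes were; library weights called 22 of 28. Values of Rps10, Rpl24, Rpl17, Rpl21, Rps12, Rpl7a, Rpl23 and Rps7 depend on how reads shared with copies were assigned.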
